A study of Mus musculus with 6 samples.

Results

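The genes described are the 6 actin genes of the mouse, Acta1, Acta2, Actc1, Actb, Actg1 and Actg2, together with the transcription factor gene Srf and its coactivator genes Myocd, Mrtfa and Mrtfb. They were taken by symbol, and all 10 were found among the 18181 genes of the table. They were chosen from measured values of the same age comparison, so their differences between ages are given as a description, without a test. Ventricles of the inbred C57BL6 strain, with no genetic change or treatment stated, were compared at 24 to 26 months, called aged here, and at 6 to 8 weeks, called young. Each age had 3 libraries of poly(A) RNA, read as pairs of 100 bases, and whether every sample was a mouse of its own is not stated, so any p-value covers only the spread between the samples at hand. Levels are in FPKM, a fragment count divided by transcript length and by the library's total, so that levels can be compared between genes.

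Actin is the protein of thin filaments in muscle and of the cytoskeleton in all cells, and its isoforms come from separate genes that differ mainly in where they are expressed. Serum response factor, the product of Srf, binds a DNA element called the CArG box in the promoters of actin genes, of other contractile genes and of immediate early genes. Its coactivators are myocardin (Myocd), found in cardiac and smooth muscle, and the myocardin-related transcription factors (Mrtfa, Mrtfb), which are held back by unpolymerized actin and released as filaments form. Ternary complex factors of the ETS family bind serum response factor at a shared site and lead it to the immediate early genes instead.

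The promoters are shown because the CArG box is what joins these actin genes to Srf. Each stretch runs 130 bases before to 20 bases after a RefSeq transcription start (GRCm38.p6, the assembly called mm10). It is written 5′ to 3′ on the minus strand, on which each of these 5 genes lies. For Acta2 and Srf that start lies inside the gene span given below, whose upstream end is at 34255585 for Acta2 and 46558267 for Srf. Boxes of both genes were sought only around the start used here. Capitals mark the CArG box (the letters C, C, then 6 bases that are each A or T, then G, G, a motif that reads the same on both strands), or, for Acta2, which had no exact match, the boxes with 1 mismatch.
Acta2 (chr19:34255354-34255503): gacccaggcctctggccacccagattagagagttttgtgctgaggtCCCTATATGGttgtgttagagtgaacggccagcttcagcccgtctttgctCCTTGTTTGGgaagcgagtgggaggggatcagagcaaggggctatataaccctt
Acta1 (chr8:123894756-123894905): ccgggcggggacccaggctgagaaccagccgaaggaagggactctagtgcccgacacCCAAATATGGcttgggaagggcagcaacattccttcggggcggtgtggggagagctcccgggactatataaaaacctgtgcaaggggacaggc
Actc1 (chr2:114052856-114053005): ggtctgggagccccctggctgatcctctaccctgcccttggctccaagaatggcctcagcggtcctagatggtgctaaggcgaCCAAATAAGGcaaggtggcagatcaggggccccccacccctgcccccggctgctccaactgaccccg
Actg1 (chr11:120348476-120348625): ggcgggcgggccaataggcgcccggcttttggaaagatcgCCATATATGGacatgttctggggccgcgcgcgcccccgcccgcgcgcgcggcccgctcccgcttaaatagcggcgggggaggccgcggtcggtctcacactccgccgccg
Srf (chr17:46556143-46556292): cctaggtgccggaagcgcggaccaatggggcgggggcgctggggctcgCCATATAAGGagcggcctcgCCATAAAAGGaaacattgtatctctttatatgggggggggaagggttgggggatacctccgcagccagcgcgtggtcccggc

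An exact box began 73 bases before the start in Acta1, 47 bases before it in Actc1 and 90 bases before it in Actg1, and Srf had 2, at 82 and 62 bases. Acta2 had boxes with 1 mismatch at 84 and 34 bases before the start. Promoter windows, from 250 bases before to 50 after a start, were matched for 7 of the 10 genes, with Actb, Actg2 and Myocd unmatched. The windows of Mrtfa and Mrtfb held no exact box. Over all 32851 promoter windows, 1.63% held an exact box and 21.1% held one with at most 1 mismatch, so the looser match is common. A match describes letters and does not show binding.

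Acta2 encodes smooth muscle alpha-actin, the main actin of vessel walls, which also marks activated fibroblasts and is made in embryonic heart muscle. It lies on chromosome 19 (34240336 to 34255585). Its level was 40.4, 73.6 and 66.4 FPKM in the aged libraries, against 637, 469.6 and 523 FPKM in the young libraries. Every aged library was far below every young one. The means were 60.2 ± 17.5 FPKM in aged and 543 ± 85.4 FPKM in young ventricle (SD, n = 3 each), a level 9.03-fold lower with age, with a log2 difference of -3.19 (SE 0.202) on the log2(FPKM + 1) scale. In rank, Acta2 stood between 943 and 1757 among all genes of the aged libraries, against 108 to 165 in the young ones. In bulk tissue, fewer cells of a type and less RNA per cell cannot be told apart.

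The striated muscle actins are Actc1, cardiac alpha-actin and the main thin filament protein of the adult heart, and Acta1, skeletal alpha-actin, which in rodents is also expressed in the newborn and the overloaded heart. Actc1 (chromosome 2, 114047282 to 114052875) was at 10964, 10053 and 11244 FPKM in aged, against 12802, 11353 and 11516 FPKM in young libraries. The aged values lay just below the young, with a mean of 10753 ± 623 FPKM in aged and 11890.2 ± 794 FPKM in young ventricle (SD, n = 3 each) and a log2 difference of -0.14 (SE 0.0762). It ranked between 3 and 4 among all genes in aged libraries and between 1 and 3 in young ones.

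Acta1 (chromosome 8, 123891758 to 123894775) was at 231, 277 and 648 FPKM in aged, against 391, 716.5 and 783 FPKM in young libraries. The ages overlapped: aged replicate 3 lay above young replicate 1, and Acta1 varied 2.81-fold among aged and 2.003-fold among young libraries, more than any of the other tested actins. The means were 385 ± 229 FPKM in aged and 630.3 ± 210 FPKM in young ventricle (SD, n = 3 each), with a log2 difference of -0.80 (SE 0.376). Set by itself against the young libraries, aged replicate 3 differed by 0.10, and without it the difference was -1.25.

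The cytoplasmic actins Actb and Actg1 are made in nearly every cell and build the cytoskeleton. Actb (chromosome 5, 142903115 to 142907976) was at 319, 312 and 342 FPKM in aged, against 406, 447 and 444 FPKM in young libraries. All aged values were below all young ones, and the log2 difference was -0.41 (SE 0.063), a level 1.33-fold lower in aged ventricle. Actg1 (chromosome 11, 120345687 to 120348495) was at 321, 279 and 322 FPKM in aged, against 358, 383 and 379.5 FPKM in young libraries. The ages again did not overlap, with a log2 difference of -0.28 (SE 0.0695). Actg2 (chromosome 6, 83512909 to 83536251), the gamma actin of gut and other visceral smooth muscle, was at 0.71, 0.51 and 0.59 FPKM in aged, against 0.74, 0.59 and 0.37 FPKM in young libraries. It ranked between 12326 and 12903 among all 18181 genes in aged libraries and between 12064 and 13100 in young ones. Actg2 did not reach the mean of 1 FPKM required for the fit. Barx1 and Foxf1, which mark visceral smooth muscle, lay between 0 and 0.35 FPKM in every library. Other markers of that list were not low. The 7 that were measured summed to 831 to 964 FPKM in aged, against 778 to 788 FPKM in young libraries. Most of that sum was Des, which heart muscle cells also make. Of 5 tested, 2, Hand2 and Pgm5, were higher in aged ventricle at a limma adjusted p under 0.05 and 0 were lower. Over all genes tested, 9.32% were higher and 17.1% lower. How much of the level of Hand2, Pgm5 or the other markers came from visceral smooth muscle was not tested.

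**Figure D1:**
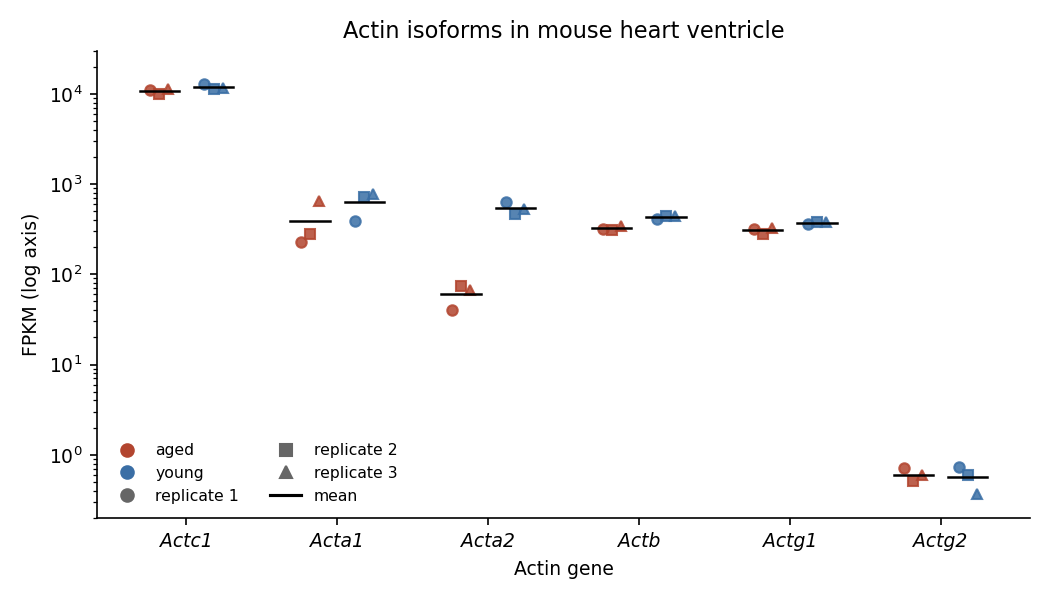
Level of each actin gene in every library, in FPKM on a log axis; points are the 3 aged and 3 young libraries of each gene and short lines are group means. Acta2 shows the widest gap, 60.2 FPKM in aged and 543 FPKM in young, while Acta1 overlaps and Actc1 stays near the top at both ages.

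Actin genes resemble each other closely enough that reads could be misassigned, so their sequences were compared. The first 60 coding bases of the 3 alpha-actins of vessel, skeletal muscle and heart are shown because these genes gave the largest, the most variable and the most abundant signals. They come from GENCODE transcripts, 5′ to 3′, and capitals mark the 19 positions at which the 3 genes do not all share a base.
Acta2: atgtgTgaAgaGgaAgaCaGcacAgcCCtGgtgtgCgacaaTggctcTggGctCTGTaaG
Acta1: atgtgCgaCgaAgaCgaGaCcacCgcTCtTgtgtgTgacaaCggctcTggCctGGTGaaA
Actc1: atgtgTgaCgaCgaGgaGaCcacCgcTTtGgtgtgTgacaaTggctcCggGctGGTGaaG

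Over the whole coding sequence, Acta2 and Actc1 shared 82.6% of bases, the identity between any pair of actins ran between 81.5% and 88.6%, and the longest run of identical bases between any pair was 77, in Acta1 and Actb. No window of 100 bases, the length of a read, occurred in more than one of the 6 actin transcripts. Stretches of Actg1 recur in pseudogene transcripts. Of its 1853 windows, 946 (51.1%) also occurred in transcripts of other genes, among them Actg-ps1 and Gm8543, so its level is uncertain to the extent that reads were shared. For Actb the number was 20 of 1821 windows (1.10%), and for the other 4 actins it was 0.

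As a share of all actin FPKM in a library, Actc1 made up 92.3%, 91.4% and 89.1% in aged, against 87.7%, 84.9% and 84.4% in young libraries. Its share was higher in every aged library, by 5.27 percentage points on average, although its level was not. Acta2 made up 0.34%, 0.67% and 0.526% in aged, against 4.36%, 3.51% and 3.83% in young libraries, a mean of 0.512 ± 0.165% in aged and 3.90 ± 0.430% in young ventricle (SD, n = 3 each). The difference in the share of Acta2 was -3.39 points, the largest among the actins that held a smaller share in aged ventricle.

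Acta1 made up 1.94%, 2.52% and 5.13% of actin in aged, against 2.68%, 5.36% and 5.74% in young libraries, and the ages overlapped. Actb and Actg1 together made up 5.26% to 5.39% in aged, against 5.23% to 6.21% in young libraries, so the cytoplasmic share also overlapped while both levels lay lower. The 6 actins summed to 11831 ± 815 FPKM in aged and 13870.0 ± 642 FPKM in young ventricle, or 2.03% to 2.28% of all FPKM in aged and 2.44% to 2.73% in young libraries. The sum was lower in aged ventricle under each scaling tried, with a ratio of aged to young of 0.853 in FPKM, 0.827 in TPM, 0.79 after quantile normalization and 0.894 with median-of-ratios scaling, where the ages overlapped. Without Actc1, the other 5 actins summed to 912, 942 and 1379 FPKM in aged, against 1792, 2017 and 2130.1 FPKM in young libraries.

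**Figure D2:**
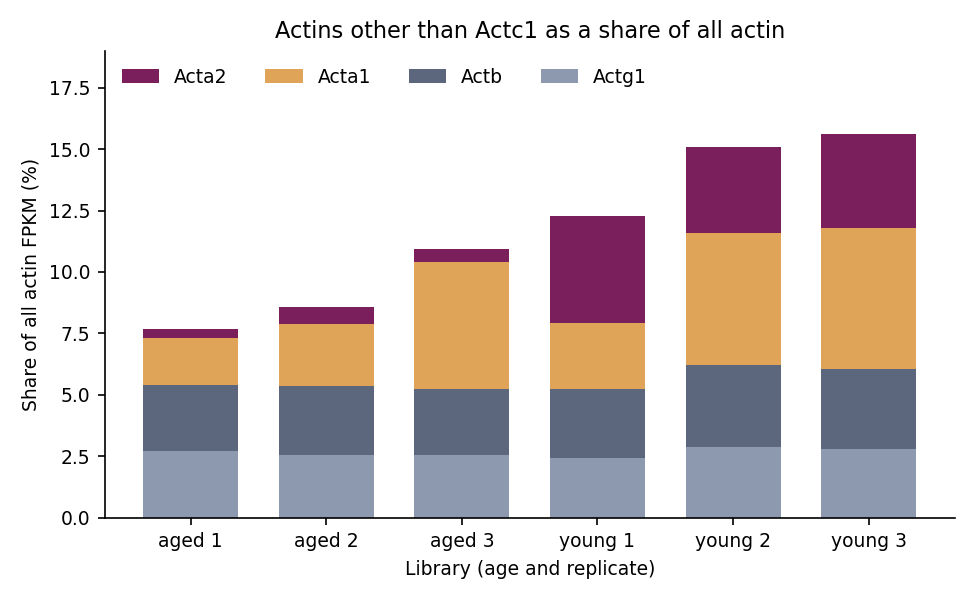
Share of all actin FPKM in each library, in percent, stacked for Acta2, Acta1, Actb and Actg1; Actc1, which holds nearly all of the rest, and Actg2 are not drawn. Acta2, at the top of each bar, holds 0.34% to 0.67% in aged and 3.51% to 4.36% in young libraries.

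Srf (chromosome 17, 46546838 to 46558267) was at 45.5, 44.1 and 46.6 FPKM in aged, against 51.8, 42.0 and 43.2 FPKM in young libraries. The ages overlapped and the log2 difference was -0.002 (SE 0.0828), with a sign that turned with median-of-ratios and quantile scaling. Myocd (chromosome 11, 65173608 to 65269989), the coactivator of the muscle genes, was at 11.3, 11.3 and 11.6 FPKM in aged, against 18.0, 13.5 and 13.3 FPKM in young libraries. Each aged value was below each young one, and the aged libraries were nearly equal, whereas young replicate 1 stood above the other young libraries. The log2 difference was -0.35 (SE 0.109).

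Mrtfa (chromosome 15, 81012281 to 81190736) was at 4.15, 4.33 and 5.08 FPKM in aged, against 6.37, 5.43 and 5.0 FPKM in young libraries, with a log2 difference of -0.26 (SE 0.107). Aged replicate 3 lay above young replicate 3. Mrtfb (chromosome 16, 13256056 to 13417529) was at 5.66, 5.71 and 5.19 FPKM in aged, against 5.26, 6.30 and 5.96 FPKM in young libraries, with a log2 difference of -0.07 (SE 0.0889) that turned its sign after quantile normalization. The ratio of Srf to Myocd was 4.01, 3.91 and 4.03 in aged, against 2.88, 3.11 and 3.25 in young libraries, so more Srf stood beside each unit of Myocd in every aged library. The 3 coactivators summed to 21.2, 21.3 and 21.8 FPKM in aged, against 29.6, 25.2 and 24.2 FPKM in young libraries, below Srf alone in each library.

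**Figure D3:**
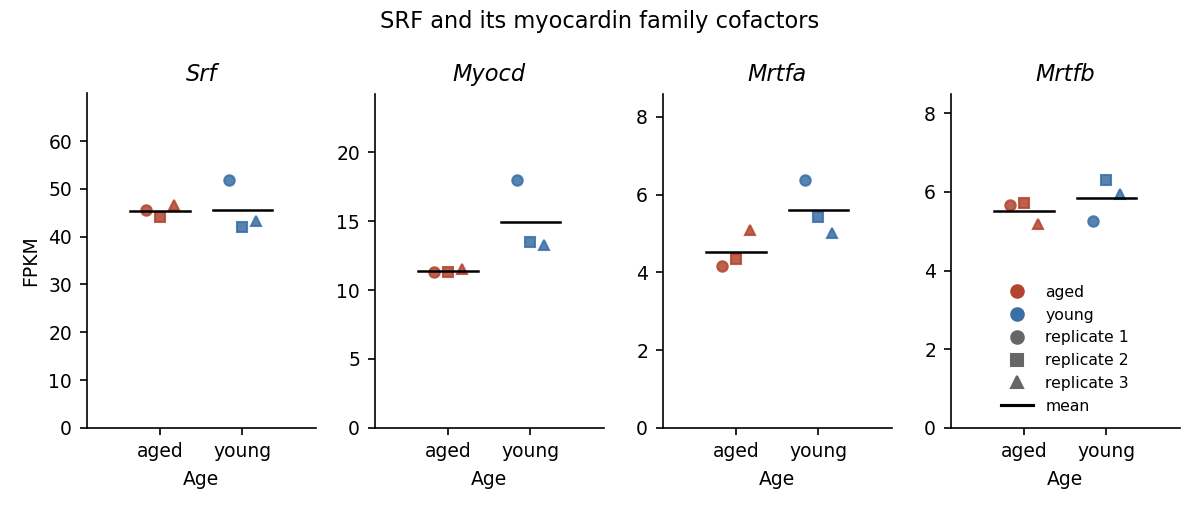
Levels of Srf, Myocd, Mrtfa and Mrtfb in every library, in FPKM; points are libraries and short lines are group means. Srf overlaps between ages near 45 FPKM, and Myocd lies at 11.3 to 11.6 FPKM in aged and at 13.3 to 18.0 FPKM in young libraries.

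Of the 11860 genes that averaged 1 FPKM or more, 26.4% were called by limma at a Benjamini-Hochberg adjusted p under 0.05, 17.1% lower and 9.32% higher in aged ventricle. In the lists below, genes said to rise or fall, or counted as higher or lower, are those called in this way. Each such count is to be read beside these shares, and a gene that was not called may still differ. Of the 10 genes described, 9 were in this fit, and 4 were called, each lower in aged: Acta2, Actb, Actg1 and Myocd. Over all genes tested, 43.0% had ages that did not overlap and 27.9% had every aged library below every young one, and 5 of the 9 had this second pattern. Nothing is read from these counts, since the same comparison chose the genes. Across 17 other settings Acta2 was called in 17, Actb in 16, Actg1 in 13 and Myocd in 6, while Acta1 was called in 3 and Actc1 in 1. The call of Actg1 was lost without young replicate 2 and without young replicate 3. That of Myocd was lost without any one library other than young replicate 3, with log2 differences between -0.42 and -0.21 over the fits without 1 library. Both calls were also lost with median-of-ratios scaling. Myocd was not called either with quantile normalization, with library weights, without a mean trend or without a filter on low values. Without young replicate 2, 2 of the 4 calls were left.

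The genes whose pattern over the 6 libraries was most like that of a given actin were found by the root mean square difference of centred log2(FPKM + 1). For Acta2 they were Casq1 (0.363), Eln (0.486), C1qtnf6 (0.588), Mest (0.642) and Slc38a1 (0.665), against a median of 1.60 over all genes. Casq1, the calsequestrin of fast skeletal muscle, was at 1.93, 2.02 and 1.78 FPKM in aged, against 34.2, 36.6 and 29.1 FPKM in young libraries. Eln, which encodes elastin of vessel walls, was at 14.6, 11.6 and 16.3 FPKM in aged, against 84.1, 110.3 and 90.0 FPKM in young libraries. For Acta1 they were Kif20a (0.256), Meox1 (0.262), H4c9 (0.275), Nnat (0.275) and Postn (0.276), against a median of 0.678. For Actc1, whose level hardly moved, they were Eif2b2 (0.0125), Slc12a4 (0.0176), Srprb (0.0281), Oxa1l (0.0288) and Nr2f6 (0.0301), against a median of 0.165. These genes were picked for their likeness, so a shared pattern is fixed by the choice.

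Other smooth muscle genes were set beside Acta2 because serum response factor and myocardin act on them too. Of 16 tested smooth muscle targets, 7 fell and 2 rose in aged ventricle, beside 17.1% lower and 9.32% higher over all genes. Their median log2 difference was -0.22, beside -0.06 over all genes tested. Myl9, a regulatory light chain of smooth muscle myosin, was at 17.3, 24.4 and 21.4 FPKM in aged, against 63.6, 79.0 and 70.7 FPKM in young libraries, with a log2 difference of -1.72 (SE 0.122, limma adjusted p = 5e-05). Actn1, a non-striated alpha-actinin, fell to 9.65 ± 0.658 FPKM in aged, against 16.7 ± 2.30 FPKM in young ventricle (SD, n = 3 each, limma adjusted p = 0.00141). Cald1, which encodes the actin-binding protein caldesmon, had a log2 difference of -0.46 (SE 0.071, limma adjusted p = 0.00248), and Csrp1, a LIM protein of smooth muscle, one of -0.62 (SE 0.114, limma adjusted p = 0.00527). The other genes that fell were Mylk, Tagln and Itga8, and those that rose included Synpo2, which encodes a Z-disc protein that the heart muscle cell also makes. With median-of-ratios scaling 5 rose, and without any one library other than young replicate 1 only 1 did.

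No gene of the list differed as far as Acta2. The ratio of Acta2 to Myl9 was 2.33, 3.02 and 3.10 in aged, against 10.02, 5.94 and 7.40 in young libraries. The ratio of Acta2 to Tagln, which encodes the smooth muscle protein transgelin, was 3.30, 7.03 and 5.85 in aged, against 33.7, 24.6 and 36.7 in young libraries. Acta2 was therefore lower relative to these companions too, in every aged library.

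Markers of the cells that make Acta2 had smaller differences than Acta2. Myh11, the myosin that defines mature smooth muscle, was at 3.96, 4.51 and 4.16 FPKM in aged, against 5.21, 5.86 and 4.54 FPKM in young libraries (log2 difference -0.25, SE 0.102, limma adjusted p = 0.106). Cnn1, another smooth muscle marker, was at 1.51, 1.19 and 1.10 FPKM in aged, against 1.0, 1.03 and 0.69 FPKM in young libraries. The 8 smooth muscle markers summed to 901 to 1027 FPKM in aged, against 871 to 879 FPKM in young libraries, most of it Des, which heart muscle cells also make, and 2 of 7 tested fell and 1 rose. Of 8 pericyte markers, 6 fell, and their sum was 332 to 354 FPKM in aged, against 383 to 466 FPKM in young libraries. Of 7 tested markers of activated fibroblasts, 3 fell, and the sum of the 8 listed was 55.2 to 87.8 FPKM in aged, against 89.6 to 132 FPKM in young libraries. Of 8 markers of great vessel muscle, 2 fell, Eln and Mfap4, and the sum was 516 to 675 FPKM in aged, against 619 to 845 FPKM in young libraries. Over all genes tested, 17.1% were called lower and 9.32% higher. The part of these cells in the level of Acta2 was not tested.

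**Figure D4:**
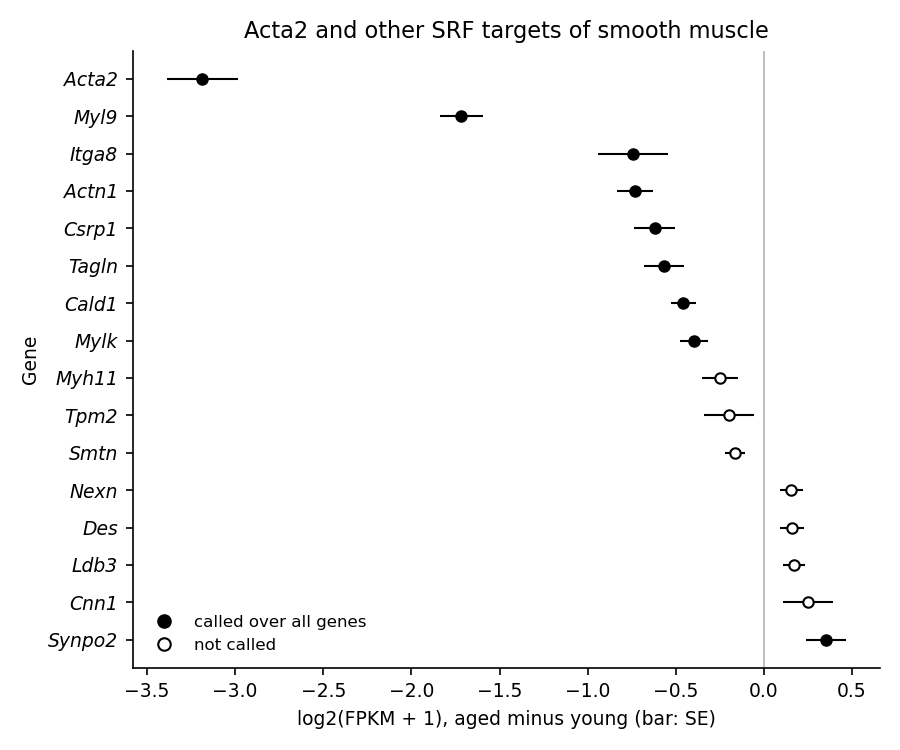
Difference of log2(FPKM + 1), aged minus young, for Acta2 and other tested smooth muscle target genes named by symbol; filled points were called by limma and bars are 1 SE. Acta2 lies at -3.19 and the next gene, Myl9, at -1.72.

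Marker sums of other muscle and stromal states were set beside Acta1, and they did not all follow it. The sum of 7 atrial muscle markers, most of it the natriuretic peptide gene Nppa, was 64.6, 60.2 and 162 FPKM in aged, against 118, 249 and 175 FPKM in young libraries, and 1 of 3 tested markers, Stard10, rose. Myl7 and Myl4, atrial light chains, were lowest among the aged libraries in aged replicate 3, at 0.23 and 1.39 FPKM, so the order of that sum is the order of Nppa. The sum of the activated fibroblast markers was 56.3, 55.2 and 87.8 FPKM in aged, against 89.6, 122 and 132 FPKM in young libraries. In the atrial and the activated fibroblast sums aged replicate 3 stood above the other aged libraries and young replicate 1 was the lowest young library, as for Acta1. Of 10 skeletal muscle markers, 8 were below a mean of 1 FPKM, the defining myosins Myh1, Myh2 and Myh4 lay between 0 and 0.26 FPKM in every library, and the sum was 10.4, 12.7 and 5.10 FPKM in aged, against 6.62, 5.49 and 6.99 FPKM in young libraries. That sum was lowest in aged replicate 3, where Acta1 was highest among the aged libraries. The part of these markers in the level of Acta1 was not tested.

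Of 7 tested markers of stratified epithelium only 1, Sprr1a, was called higher, beside 9.32% over all genes, though their median log2 difference was 3.36. These markers set aged replicates 1 and 2 apart, with sums of 284 and 454 FPKM. The sum was 4.34 FPKM in aged replicate 3 and 1.69 to 2.13 FPKM in young libraries. Acta2 was at 66.4 FPKM in aged replicate 3, where this sum was far below that of aged replicates 1 and 2. With aged replicate 3 alone against the young, the log2 difference of Acta2 was -3.001. The part of the epithelial signal in the level of Acta2 was not tested. Heart muscle markers, which check the tissue label, were abundant at both ages, and their 8 genes summed to 44766 to 48505 FPKM in aged, against 37196 to 39949 FPKM in young libraries, with 3 of 8 higher. Endothelial markers summed to 349 to 362 FPKM in aged, against 418 to 509 FPKM in young libraries, with 4 of 8 lower. Of 8 fibroblast markers 5 fell, with a sum of 1084 to 1188 FPKM in aged, against 1137 to 1224 FPKM in young libraries. Of 6 tested immune markers 1 fell and 1 rose, and the sum of all 8 was 43.8 to 74.9 FPKM in aged, against 49.5 to 55.3 FPKM in young libraries.

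Of 10 tested immediate early genes, which serum response factor switches on with ternary complex factors, 4 rose and 0 fell, beside 9.32% higher and 17.1% lower over all genes. The median log2 difference was 0.48, beside -0.06 over all genes, and Ier2, Mcl1 and Dusp5 had differences of -0.003, -0.17 and -0.25. Egr1, a zinc finger transcription factor, was at 26.8, 14.3 and 18.4 FPKM in aged, against 9.25, 7.31 and 6.40 FPKM in young libraries, with a log2 difference of 1.24 (SE 0.202, limma adjusted p = 0.00313). Junb, a subunit of the AP-1 transcription factor, rose to 20.2 ± 4.25 FPKM in aged, against 11.0 ± 1.25 FPKM in young ventricle (SD, n = 3 each, limma adjusted p = 0.00455). Egr3 had a log2 difference of 0.68 (SE 0.167, limma adjusted p = 0.0169) and Fos one of 1.17 (SE 0.295, limma adjusted p = 0.019). Fos was at 6.03 FPKM in young replicate 1, close to the 6.43 FPKM of aged replicate 3. Without aged replicate 1, or without young replicate 3, 2 of the list rose. Without young replicate 1, 6 rose and 1 fell, and with library weights the counts were the same.

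Genes of the cytoskeleton that myocardin-related transcription factors act on were the next list. Of 20 tested, 12 fell and 0 rose, beside 17.1% lower and 9.32% higher over all genes, with a median log2 difference of -0.33. In 5 of the 17 alternatives 1 rose. Among them were the fit without aged replicate 2, median-of-ratios scaling, library weights and a replicate block. Flna, which encodes filamin A, a crosslinker of actin filaments, was at 21.3, 23.6 and 24.8 FPKM in aged, against 38.9, 43.0 and 46.2 FPKM in young libraries, with a log2 difference of -0.85 (SE 0.0827, limma adjusted p = 0.000242). Tgfb1i1, an adhesion protein, had a log2 difference of -0.66 (SE 0.077, limma adjusted p = 0.000628). Itga5, an integrin chain that binds fibronectin, had one of -0.61 (SE 0.0771, limma adjusted p = 0.000918), and the tropomyosin gene Tpm3 one of -0.47 (SE 0.0666, limma adjusted p = 0.00169). Of the markers given above, 4 of 8 endothelial, 6 of 8 pericyte and 5 of 8 fibroblast genes fell as well. The rest of these markers were not called, and the fibroblast sums overlapped between ages. The part of these markers in the count of the list was not tested.

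Of 18 tested cardiac muscle targets, 7 rose and 0 fell, beside 9.32% higher and 17.1% lower over all genes, with a median log2 difference of 0.14. The largest difference of the list was that of Nppa, at -1.41 (SE 0.474, limma adjusted p = 0.0568), whose ages overlapped. Myh7, the slow myosin heavy chain of the heart, was at 47.2, 40.1 and 58.1 FPKM in aged, against 21.2, 19.7 and 21.4 FPKM in young libraries, with a log2 difference of 1.17 (SE 0.118, limma adjusted p = 0.000289). Myl2, the ventricular regulatory light chain, had a log2 difference of 0.54 (SE 0.0739, limma adjusted p = 0.0014). Hspb7, a small heat shock protein of heart, had one of 0.47 (SE 0.074, limma adjusted p = 0.00263), and the cardiac troponin T gene Tnnt2 one of 0.32 (SE 0.0648, limma adjusted p = 0.00794). Actc1, of the same sarcomere, had a lower mean in aged ventricle, by a log2 difference of -0.14 that ran between -0.26 with quantile normalization and -0.08 with median-of-ratios scaling, and was -0.09 without young replicate 1. The 8 heart muscle markers, of which this list holds several, summed higher in aged libraries, as given above. Without young replicate 3, 4 of the list rose, and without a filter on low values 3 did. In 7 of the 17 alternatives, among them TPM and quantile normalization and the fits without aged replicate 3 and without young replicate 1, 1 gene of the list fell.

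Among 15 tested partners of serum response factor beyond the coactivators, 3 rose and 3 fell, beside 9.32% higher and 17.1% lower over all genes. Csrp2, a LIM protein of smooth muscle that binds the factor, fell to 10.05 ± 1.21 FPKM in aged, against 28.4 ± 1.84 FPKM in young ventricle (SD, n = 3 each, limma adjusted p = 3.04e-05). Elk3, a ternary complex factor, had a log2 difference of -0.42 (SE 0.0765, limma adjusted p = 0.00512). Abra, an actin-binding protein of striated muscle, was at 39.1, 36.2 and 55.8 FPKM in aged, against 21.4, 15.7 and 19.1 FPKM in young libraries, with a log2 difference of 1.17 (SE 0.161, limma adjusted p = 0.00142). Phactr1, which binds actin monomers, had one of 0.57 (SE 0.127, limma adjusted p = 0.0115). The remaining calls were Tbx5, which rose, and Fhl2, which fell. The list's median was -0.04 and turned positive with median-of-ratios scaling, with 5 rising and 2 falling, and without aged replicate 3.

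Of 26 tested regulators of the balance between actin monomer and filament, 9 fell and 1, Lmod2, rose, with a median log2 difference of -0.16. Over all genes, 17.1% were lower and 9.32% higher. Dstn, which encodes the filament-severing protein destrin, was at 96.3 ± 1.47 FPKM in aged and 149 ± 10.2 FPKM in young ventricle (SD, n = 3 each, limma adjusted p = 0.000305). Cfl1, its non-muscle relative cofilin, was at 193 ± 5.56 FPKM in aged and 276 ± 19.5 FPKM in young ventricle (SD, n = 3 each, limma adjusted p = 0.000996). Actr3, a subunit of the Arp2/3 complex, had a log2 difference of -0.48 (SE 0.0618, limma adjusted p = 0.00105), and Capza1, a subunit of capping protein, one of -0.54 (SE 0.0817, limma adjusted p = 0.00216). The call of Lmod2 was lost without any one of aged replicates 2 and 3 and young replicates 2 and 3, and also on TPM, with quantile normalization, without a filter, without a mean trend and with a replicate block, whereas 3 genes rose with median-of-ratios scaling and 2 without aged replicate 1. The endothelial, pericyte and fibroblast markers that fell are given above, and their part in this count was not tested.

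Of 14 tested genes for folding and maturation of actin, 2 fell and 0 rose, beside 17.1% lower and 9.32% higher over all genes, with a median of -0.12. The 2 were Cct3 (log2 difference -0.24, SE 0.0574, limma adjusted p = 0.0144) and Cct5 (log2 difference -0.19, SE 0.0523, limma adjusted p = 0.0261), subunits of the chaperonin that folds actin. The count of genes that fell was 0 without young replicate 3 and with median-of-ratios scaling, 1 without any one of aged replicates 1 and 3 and young replicate 2, and 5 on TPM, and 1 gene rose with median-of-ratios scaling and without young replicate 2. The medians of the lists given here, other than that of the other partners, kept their sign under TPM, median-of-ratios and quantile scaling.

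**Figure D5:**
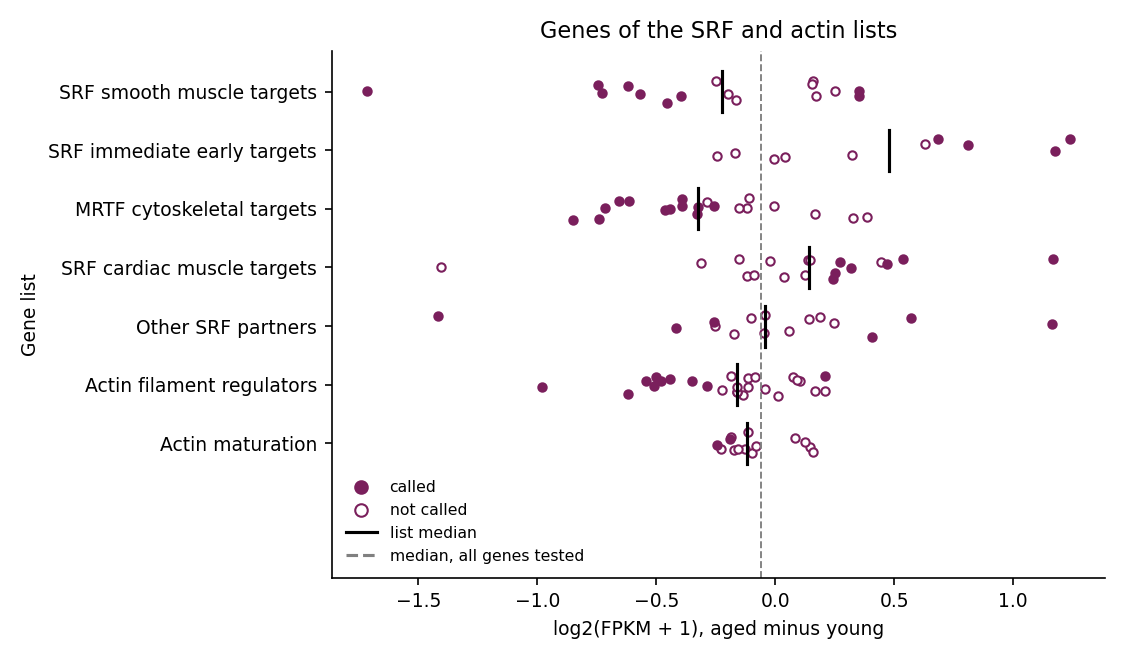
Difference of log2(FPKM + 1), aged minus young, for tested genes of 7 SRF and actin lists; filled points were called by limma at an adjusted p under 0.05, short lines are list medians and the dashed line is the median of all genes tested. Immediate early targets have a median of 0.48 and MRTF cytoskeletal targets one of -0.33, beside -0.06 over all genes.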

How the data were processed

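The authors deposited 1 table of FPKM for 18181 genes in 6 libraries, 3 aged and 3 young, per the file headers. Per the submitters' processing notes, the tools were RSEM 1.2.12, HISAT2 2.0.4, DESeq2 1.4.5 and Bowtie2 2.2.5, with the build mm10 and no role for any of them. How genes were annotated, filtered and strand-marked is not given in the sources used here. Low values showed no clear whole-read steps, but they are given to 0.01 FPKM, and such rounding could hide steps. The depth is therefore unknown and counting intervals cannot be given. FPKM of a library summed to 529258 to 566499.

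The 11860 genes averaging 1 FPKM or more were fitted with limma 3.58.1 in R 4.3.3 on log2(FPKM + 1) with a mean trend, two-sided. Calls required a Benjamini-Hochberg adjusted p under 0.05. That scale understates the change of low genes. Each fold divides one mean FPKM by another. With 3 libraries per age, the smallest p that exact permutation can reach is 0.1. The fit was also run on simulated data with independent noise for each gene and library. Differences shared by a whole library were not simulated, and the outcome is not reported here.

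The genes described and all gene lists were chosen with earlier results of these data known. Genes named from a target or regulator list are up to 4 called genes with the largest limma statistic. Others complete a count of 7 or fewer and were chosen after their values were seen. A list and a gene, both counted in totals over the lists, are not reported here. Coordinates and promoters are from RefSeq (GRCm38.p6) and transcripts from GENCODE. Alternatives were other scalings (TPM, quantile, median-of-ratios), a pseudocount of 0.1, filters at 0 and 5 FPKM, other variance priors, library weights, a replicate block, omission of single libraries, and aged replicate 3 alone. Plots used Python 3.11.15 with pandas 2.3.3 and matplotlib 3.10.9.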

Additional observations from a re-analysis of the deposited data

How the results depend on the processing

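The log2 difference of Acta2, which is a description because the gene was chosen from this comparison, lay between -3.35 and -2.93 in the 17 alternatives, and the difference in its share of actin ran between -3.60 and -3.16 points in the 9 alternatives run on shares. With aged replicate 3 alone against young, in which the lone library is assumed to vary like the young, 247 genes were called higher and 216 lower, in place of 1105 and 2026. In the same fit 1 of the genes described was called lower in place of 4, 6 genes of the SRF and actin lists were higher and 5 lower in place of 17 and 38, the Actc1 share was 3.403 points higher in place of 5.27, and the Acta1 log2 difference and share turned to 0.10 and 0.541 points, in place of -0.80 and -1.39. Leaving out 1 library at a time gave 711 to 1020 genes higher and 1171 to 1974 lower, 2 to 4 of the genes described lower, and 9 to 18 list genes higher and 28 to 40 lower; young replicate 3 gave the lowest count of higher genes. Median-of-ratios scaling gave 1483 genes higher and 1507 lower, 2 of the genes described lower and 28 list genes higher. Quantile normalization gave 1320 and 1517 and TPM 943 and 2420. Without a filter 9 list genes were higher. The cause of these changes was not tested.

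Same-numbered libraries of the ages did not deviate together over the genes tested (correlations of 0.041, -0.08 and 0.038). The labels state no pairing, and a pairing that touches few genes would not show in these correlations. With a replicate block, 1002 genes were higher and 1783 lower, and 5 of the genes described were lower, Acta1 being added.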
